A study of Mus musculus with 12 samples.

Results

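Krüppel-like factors (KLF) are transcription factors with zinc fingers at the C-terminus that bind GC-rich and CACCC DNA. The expression of 10 Klf genes was measured here: Klf2, Klf3, Klf4, Klf6, Klf7, Klf9, Klf10, Klf11, Klf12 and Klf13. They were taken by symbol from a list and are 10 of the 51826 genes in the count table. All 10 passed the filter on low counts and were among the 15038 genes tested.

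KLF proteins share their DNA-binding domain and differ in the N-terminal part, which recruits cofactors. KLF2, KLF4, KLF6 and KLF7 mostly activate transcription through acetyltransferases, KLF3 and KLF12 (and KLF8) bind the corepressor CtBP, and KLF9, KLF10, KLF11 and KLF13 bind the corepressor SIN3A. In lymphocytes KLF2 and KLF4 are known as factors of quiescence, and KLF2 drives genes of lymphocyte trafficking.

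RNA of 12 pre-B cell lines from the bone marrow of C57BL/6 mice was sequenced. Marrow of 2 mice was cultured with interleukin 7 (IL7), the growth factor of pre-B cells, for 7 days. Cells of each mouse were transduced with a retroviral vector, either empty (EV) or with BCR-ABL1, the fusion kinase of Philadelphia chromosome-positive leukemia, to give 3 lines per mouse and condition. After 48 hours with IL7, IL7 was taken from the BCR-ABL1 lines for 1 week. EV lines stayed in IL7 and went through a GFP sort. BCR-ABL1, IL7 withdrawal and the lack of that sort therefore cannot be told apart. Lines are named by mouse and letter (EV 2B is an EV line of mouse 2), and lines of a mouse are cultures of 1 animal. The p-values therefore treat lines, not animals, as replicates. In the comparison over all 12 lines without the mouse in the fit, the spread between lines includes the difference between the 2 mice. In these bulk samples, fewer cells of a type and less RNA per cell cannot be told apart.

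Counts per line summed to between 34791011 and 66011225. Values are CPM, the counts of a gene relative to the library total after TMM scaling, unless said otherwise. The 3 EV lines of mouse 2 varied more than the other lines, with a common coefficient of variation of 0.388, against 0.0849 to 0.103 in the other 3 groups of mouse and condition. All 8 B lineage markers were expressed, with summed levels between 2455 and 4180 CPM in EV and between 2540 and 3208 CPM in BCR-ABL1 lines, and 0 of 8 passed the test between the conditions over all lines. Vpreb1 and Igll1, the surrogate light chain genes of early pre-B cells, were higher in EV lines of mouse 2 than of mouse 1 (log2 difference 1.51, edgeR adjusted p = 0.00123, and 1.40, edgeR adjusted p = 0.0132), as Klf3 and Klf12 were, and rose with BCR-ABL1 in mouse 1 alone (1.51, edgeR adjusted p = 1.15e-06, and 1.19, edgeR adjusted p = 4.42e-06), with an interaction for both (edgeR adjusted p = 0.000446 and 0.00608). Their part in the Klf values was not tested. The summed level of 7 myeloid markers was at most 1.104 CPM, of 6 T and NK markers at most 3.76 CPM, of 4 mast cell markers at most 0.215 CPM and of 5 stromal and endothelial markers at most 2.02 CPM in any line. The 6 erythroid markers summed to between 1.26 and 6.79 CPM in EV and between 5.94 and 12.7 CPM in BCR-ABL1 lines. Of these 5 lists of other cell types, Cd3d was lower in BCR-ABL1 lines (log2 fold change -2.67, edgeR adjusted p = 0.000534) and Hbb-bt, a globin gene, was higher (1.72, edgeR adjusted p = 0.0303), and the part of these in the Klf values was not tested either.

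Klf genes were first compared with each other by level per length, as TPM, the counts per exon base of a gene relative to the sum over all genes. Klf13 was the most abundant in both conditions, with a median of 42.9 TPM (range 38.4 to 59.2) in EV and 34.7 TPM (26.6 to 42.5) in BCR-ABL1 lines. In EV lines it stood above all other Klf genes without overlap and made up 45.9% to 54.0% of the summed TPM of the 10 genes. After it came Klf6 (median 9.89 TPM), Klf10 (9.22), Klf4 (7.02) and Klf9 (6.97), whose neighbors in this order overlapped in range. Klf7 (3.599), Klf2 (2.53) and Klf11 (1.95) followed below Klf9 without overlap between Klf9 and Klf7. Klf3 (0.311) and Klf12 (0.0900) were lowest, without overlap between Klf11 and Klf3. The order of Klf6 and Klf10, and of Klf4 and Klf9, was swapped when the longest transcript was used as length.

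In BCR-ABL1 lines Klf13 and Klf6 (median 33.1 TPM, 26.8 to 41.4) overlapped at the top. Klf2 had moved from the seventh to the third place (median 14.98 TPM) and Klf4 from the fourth to the seventh (2.96 TPM). The step from Klf6 to Klf2 was the only one between neighbors without overlap. Klf6 made up 27.6% to 32.3% of the summed TPM, against 10.2% to 12.4% in EV lines, and Klf13 made up 23.5% to 36.8%. The sum itself was 79.5 to 109.6 TPM in EV and 94.6 to 142 TPM in BCR-ABL1 lines, which overlapped. Summed CPM, which is TMM-scaled and not per length, was 221 to 413 in EV and 242 to 321 in BCR-ABL1 lines. TPM carries no TMM scaling, so differences between lines and conditions can depend on which of these scales is used.

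**Figure D1:**
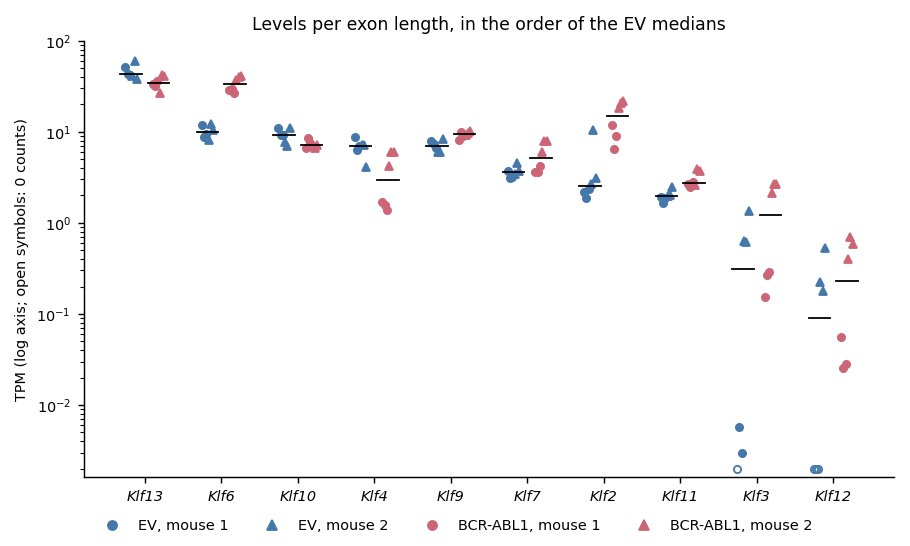
TPM of the 10 Klf genes (y axis, logarithmic) in the 6 EV lines (blue) and 6 BCR-ABL1 lines (red), with genes in the order of the EV medians, circles for mouse 1, triangles for mouse 2, black bars for medians and open symbols for lines with 0 counts. Klf6 stands higher in every BCR-ABL1 line than in every EV line, and Klf3 and Klf12 spread widely within each condition, with the lines of mouse 1 lowest.

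To see which Klf genes changed upon transformation, BCR-ABL1 and EV lines were compared with edgeR's quasi-likelihood fit and glmTreat, which asks for a change beyond 1.5-fold, with Benjamini-Hochberg adjustment over all tested genes. Of the 10 genes, 1 was higher in BCR-ABL1 lines (Klf6) and 0 were lower. Over all tested genes 5.98% were called higher and 6.46% lower. Against no change in place of 1.5-fold, edgeR called 2 higher (Klf2 and Klf6), where 22.5% of all genes were, and 3 lower (Klf4, Klf10 and Klf13), where 25.9% were, shares near those of the Klf genes. With the mouse as a block in the fit, 3 were higher (Klf2, Klf3 and Klf6), where 7.47% of all genes were, and 1 was lower (Klf4), where 7.16% were. The CPM ranges of the conditions did not overlap for 3 of 10 genes (Klf6, Klf10 and Klf13), against 25.6% of all tested genes. In TPM the ranges of Klf10 and Klf13 overlapped.

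**Figure D2:**
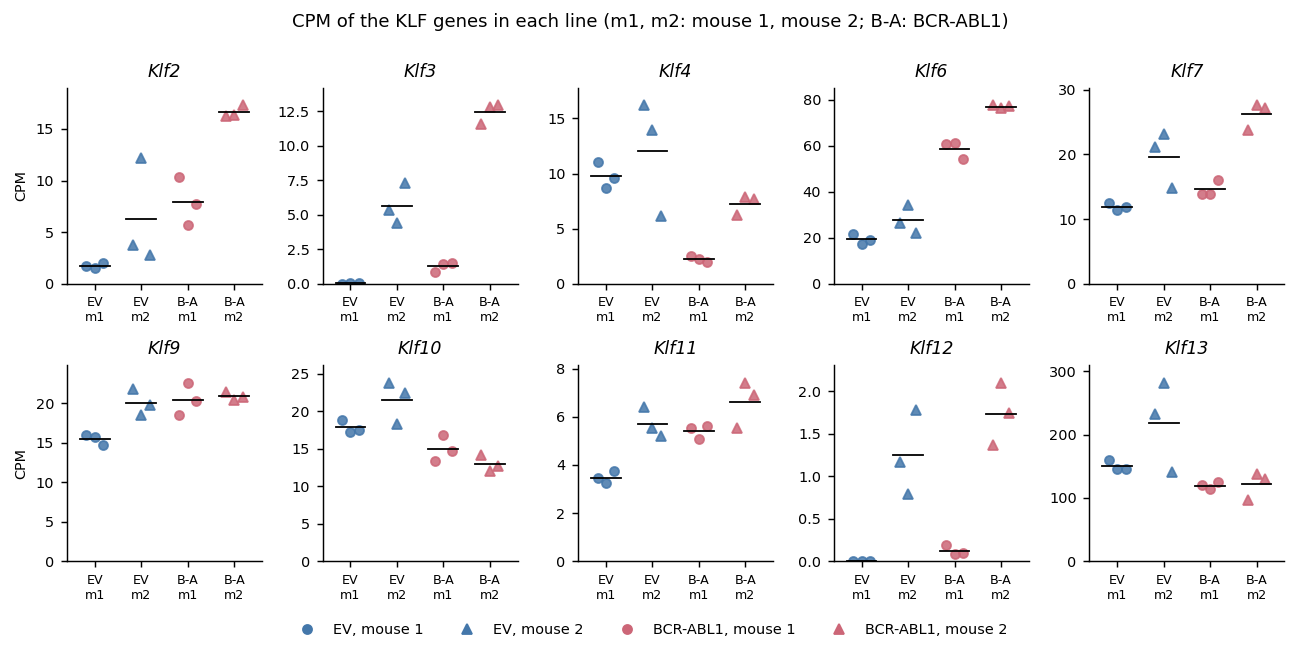
CPM of each Klf gene (y axes, linear from 0, own scale per gene) in the 3 lines of each mouse and condition, with black bars for the means of 3 lines. The BCR-ABL1 lines of Klf6 all lie above the EV lines, the EV 2B line of Klf2 (12.2 CPM) lies apart from the other EV lines, and Klf3 and Klf12 are at or near 0 in the EV lines of mouse 1.

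Of the activators, Klf6 was the Klf gene with the clearest difference. KLF6 is a ubiquitous factor described as a tumor suppressor in several tissues. Its gene lies at chr13:5861482-5870394 (GRCm38, plus strand). The RefSeq promoter (GRCm38.p6, 250 bases before to 50 after the start) at chr13:5861239-5861538, plus strand, is shown for the gene that changed in both mice, and it holds no CACCC or GGGTG.

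Klf6: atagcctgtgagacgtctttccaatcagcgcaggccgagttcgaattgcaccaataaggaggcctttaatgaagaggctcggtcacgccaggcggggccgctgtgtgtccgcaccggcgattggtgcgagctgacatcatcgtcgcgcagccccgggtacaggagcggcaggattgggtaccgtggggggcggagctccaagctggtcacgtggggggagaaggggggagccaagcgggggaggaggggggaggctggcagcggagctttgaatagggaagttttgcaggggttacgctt

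Klf6 was at 21.7, 17.3 and 18.9 CPM in EV 1A to 1C and at 26.6, 34.2 and 22.1 CPM in EV 2A to 2C. It was at 60.7, 61.0 and 54.5 CPM in BCR-ABL1 1A to 1C and at 77.6, 76.3 and 77.3 CPM in BCR-ABL1 2A to 2C. Every BCR-ABL1 line was above every EV line, and within BCR-ABL1 the lines of mouse 2 were all above those of mouse 1. The mean rose from 23.5 ± 6.14 CPM (SD, n = 6) to 67.9 ± 10.3 CPM (n = 6), a log2 fold change of 1.53 (SE 0.17, edgeR adjusted p = 0.000415). Within mouse 1 the log2 fold change of Klf6 was 1.62 (edgeR adjusted p = 2.47e-07) and within mouse 2 it was 1.49 (edgeR adjusted p = 0.0114). The interaction of mouse and condition did not pass for Klf6 (edgeR adjusted p = 0.742), and condition took 89.2% of the variance of its log2 CPM over the 12 lines.

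Klf2 and Klf4, the factors of lymphocyte quiescence, had log2 fold changes of opposite sign. Klf2 lies at chr8:72319033-72321656 (plus strand) and Klf4, which also encodes a factor of pluripotency, at chr4:55527143-55532466 (minus strand). Their RefSeq promoters, at chr8:72318812-72319111 (plus strand) and chr4:55532426-55532725 (minus strand), are shown for this pair, with CACCC or its complement GGGTG in capitals.

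Klf2: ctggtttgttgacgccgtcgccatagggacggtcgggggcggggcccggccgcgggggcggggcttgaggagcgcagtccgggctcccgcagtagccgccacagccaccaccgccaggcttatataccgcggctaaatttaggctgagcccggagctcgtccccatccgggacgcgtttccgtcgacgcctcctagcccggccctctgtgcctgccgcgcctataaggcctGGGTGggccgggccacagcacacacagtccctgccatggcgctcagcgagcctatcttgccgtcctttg

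Klf4: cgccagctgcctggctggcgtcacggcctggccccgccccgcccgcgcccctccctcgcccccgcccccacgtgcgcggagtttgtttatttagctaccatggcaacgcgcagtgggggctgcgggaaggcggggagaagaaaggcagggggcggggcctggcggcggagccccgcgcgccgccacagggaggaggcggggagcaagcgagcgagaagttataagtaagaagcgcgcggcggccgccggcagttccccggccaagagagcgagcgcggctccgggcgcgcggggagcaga

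Klf2 was at 1.68, 1.54 and 2.00 CPM in EV 1A to 1C and at 3.71, 12.2 and 2.79 CPM in EV 2A to 2C. In BCR-ABL1 lines it was at 10.3, 5.64 and 7.72 CPM in 1A to 1C and at 16.3, 16.3 and 17.3 CPM in 2A to 2C. The conditions overlapped only through EV 2B, which was above all 3 BCR-ABL1 lines of mouse 1. The means were 3.99 ± 4.10 and 12.3 ± 5.02 CPM (SD, n = 6 each), with a log2 fold change of 1.62 (SE 0.53) that did not pass (edgeR adjusted p = 0.123). Without EV 2B, Klf2 passed, with a log2 fold change of 2.38 (edgeR adjusted p = 0.00191), and with the mouse as a block it also passed (1.79, edgeR adjusted p = 0.00986). Klf2 was higher within mouse 1 (log2 fold change 2.19, edgeR adjusted p = 2.41e-05), whereas in mouse 2 the value was 1.43 (edgeR adjusted p = 0.321), and the interaction did not pass (edgeR adjusted p = 0.484).

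Klf4 was at 11.1, 8.68 and 9.61 CPM in EV 1A to 1C and at 16.2, 13.9 and 6.13 CPM in EV 2A to 2C. In BCR-ABL1 lines it was at 2.48, 2.28 and 1.98 CPM in 1A to 1C and at 6.22, 7.89 and 7.72 CPM in 2A to 2C. The conditions were far apart in mouse 1 and overlapped in mouse 2, where EV 2C was below all 3 BCR-ABL1 lines. The means were 10.9 ± 3.65 and 4.76 ± 2.82 CPM (SD, n = 6 each), with a log2 fold change of -1.20 (SE 0.43, edgeR adjusted p = 0.163). With the mouse as a block Klf4 was lower (-1.42, edgeR adjusted p = 0.0226), as it was within mouse 1 (-2.11, edgeR adjusted p = 7.95e-07), but not within mouse 2 (-0.71, edgeR adjusted p = 0.682).

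Klf7, an activator known from the development of neurons, lay between 11.4 and 12.5 CPM in EV lines of mouse 1 and between 14.8 and 23.2 CPM in those of mouse 2. In BCR-ABL1 lines Klf7 lay between 13.9 and 16.0 CPM in mouse 1 and between 23.8 and 27.6 CPM in mouse 2. Within each mouse every BCR-ABL1 line was above every EV line in CPM. In TPM this did not hold in mouse 1 (3.72 in EV 1A against 3.58 in BCR-ABL1 1A). Over both mice the conditions overlapped, and the log2 fold change of 0.37 (SE 0.26) did not pass (edgeR adjusted p = 1). Exons of Klf7 share 3196 bases with Gm26649 on the opposite strand, which was at 0.276 CPM or less in every line. The libraries were strand-specific, but the strand setting of the counting is not given in the sources used here.

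Of the genes whose products bind CtBP, Klf3 and Klf12 differed mainly between the mice. KLF3 is a repressor known from erythroid and B cell development, and KLF12 is a repressor found on the AP-2alpha gene. Klf3 lies at chr5:64803388-64832901 (plus strand) and Klf12 at chr14:99870632-100284679 (minus strand). Their RefSeq promoters, at chr5:64803271-64803570 (plus strand) and chr14:100149747-100150046 (minus strand, within the annotated gene), are shown for the pair whose levels separated by mouse, with CACCC or GGGTG in capitals.

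Klf3: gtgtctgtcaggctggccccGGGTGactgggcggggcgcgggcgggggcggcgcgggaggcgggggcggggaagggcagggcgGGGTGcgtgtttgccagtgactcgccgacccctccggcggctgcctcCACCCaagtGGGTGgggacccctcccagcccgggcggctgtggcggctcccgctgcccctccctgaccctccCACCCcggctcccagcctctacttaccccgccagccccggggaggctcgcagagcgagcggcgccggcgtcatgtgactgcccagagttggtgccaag

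Klf12: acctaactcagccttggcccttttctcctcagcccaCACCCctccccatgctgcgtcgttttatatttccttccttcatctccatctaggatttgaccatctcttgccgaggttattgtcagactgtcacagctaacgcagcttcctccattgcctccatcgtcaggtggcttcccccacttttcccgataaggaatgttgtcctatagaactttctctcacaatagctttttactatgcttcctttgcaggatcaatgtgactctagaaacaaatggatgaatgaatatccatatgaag

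The EV lines of mouse 1 had at most 2 counts of Klf3, at 0, 0.0289 and 0.0154 CPM in 1A to 1C. Those of mouse 2 were at 5.31, 4.37 and 7.32 CPM in 2A to 2C. BCR-ABL1 lines were at 0.831, 1.40 and 1.52 CPM in mouse 1 and at 11.6, 12.8 and 12.9 CPM in mouse 2. Klf3 was thus high in every line of mouse 2, low in BCR-ABL1 lines of mouse 1 and at or under the floor of 3 counts per line in EV lines of mouse 1. The mean of the EV lines of mouse 2 was at least 117-fold higher than that floor in EV lines of mouse 1 (edgeR adjusted p = 6.26e-07), and the mean of the BCR-ABL1 lines of mouse 1 was at least 25.7-fold higher (edgeR adjusted p = 2.28e-06). Between BCR-ABL1 lines, mouse 2 was above mouse 1 by a log2 difference of 3.32 (edgeR adjusted p = 0.000264).

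Over all lines the means of Klf3 were 2.84 ± 3.24 CPM in EV and 6.85 ± 6.15 CPM in BCR-ABL1 lines (SD, n = 6 each), and the log2 fold change of 1.28 had an SE of 1.70 (edgeR adjusted p = 0.955). With the mouse as a block the log2 fold change was 2.69 and passed (edgeR adjusted p = 0.0368). Within mouse 2 Klf3 was 1.15 higher on the log2 scale, without passing (edgeR adjusted p = 0.0945). Exons of Klf3 share 404 bases with Gm20033 on the opposite strand, which had at most 0.0376 CPM in EV lines of mouse 1, between 0.162 and 0.417 CPM in EV lines of mouse 2 and between 0.0170 and 0.664 CPM in BCR-ABL1 lines, below Klf3 in the groups where Klf3 was detected.

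Klf12 had 0 counts in each EV line of mouse 1 and was at 1.17, 0.795 and 1.79 CPM in EV 2A to 2C. BCR-ABL1 lines were at 0.187, 0.0836 and 0.0909 CPM in mouse 1 and at 1.37, 2.099 and 1.74 CPM in mouse 2. As for Klf3, every line of mouse 2 was above every line of mouse 1, and EV lines of mouse 1 were lowest. The mean of the EV lines of mouse 2 was at least 25.7-fold higher than the floor of 3 counts per line in mouse 1 (edgeR adjusted p = 5.79e-05), and BCR-ABL1 lines of mouse 2 exceeded those of mouse 1 by 3.79 on the log2 scale (edgeR adjusted p = 0.00211). Between the conditions the means of Klf12 were 0.624 ± 0.753 and 0.928 ± 0.916 CPM (SD, n = 6 each, edgeR adjusted p = 1).

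Of the genes whose products bind SIN3A, Klf10 and Klf13 were lower in CPM in every BCR-ABL1 line than in every EV line. In TPM both overlapped, with EV minima of 6.95 and 38.4 and BCR-ABL1 maxima of 8.55 and 42.5. Neither passed the test beyond 1.5-fold. Klf10, an early gene of TGF-beta signaling, was at 18.8, 17.3 and 17.6 CPM in EV 1A to 1C and at 23.8, 18.3 and 22.5 CPM in EV 2A to 2C. BCR-ABL1 lines were at 13.4, 16.8 and 14.8 CPM in mouse 1 and at 14.2, 12.0 and 12.7 CPM in mouse 2. The lowest EV line and the highest BCR-ABL1 line, both of mouse 1, were close to each other. The log2 fold change of Klf10 was -0.50 (SE 0.11), with an edgeR adjusted p of 1 against 1.5-fold and of 0.00332 against no change.

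Klf13, a regulator of the chemokine gene Ccl5 in T cells, was at 159, 146 and 146 CPM in EV 1A to 1C and at 233, 282 and 141 CPM in EV 2A to 2C. In BCR-ABL1 lines Klf13 was at 121, 113 and 125 CPM in mouse 1 and at 96.9, 138 and 130 CPM in mouse 2. In CPM EV 2A and 2B stood far above the rest, and EV 2C lay just above the highest BCR-ABL1 line. In TPM EV 2A (41.5) was below every EV line of mouse 1 (42.4 to 51.1). EV 2C (38.4 TPM) was below BCR-ABL1 2B (42.5) and 2C (40.6). The means were 184 ± 58.8 and 121 ± 14.4 CPM (SD, n = 6 each). The log2 fold change of Klf13 was -0.61 (SE 0.19), with an edgeR adjusted p of 0.662 against 1.5-fold and of 0.0144 against no change.

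Klf9, a gene induced by glucocorticoids and thyroid hormone, lay between 18.5 and 22.6 CPM in BCR-ABL1 lines, against 14.7 and 21.8 CPM as lowest and highest EV line. Klf11, a relative of Klf10 that also responds to TGF-beta, lay between 3.23 and 6.41 CPM in EV and between 5.08 and 7.41 CPM in BCR-ABL1 lines. Both overlapped between the conditions over all lines, whereas in mouse 1 every BCR-ABL1 line was above every EV line for both genes. The log2 fold changes were 0.22 (SE 0.10) for Klf9 and 0.39 (SE 0.19) for Klf11, and neither passed (edgeR adjusted p = 1 for each).

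Because the lines came from different animals, the Klf genes were next compared between the mice within each condition. In CPM the mean of the EV lines was higher in mouse 2 for 10 of 10 Klf genes, and the mean of the BCR-ABL1 lines for 9 of 10, Klf10 being the exception. Among BCR-ABL1 lines the means of Klf9 and Klf13 were nearly equal, with a log2 difference of 0.03 for each. No share over all tested genes was taken for these counts of means, so they are not a result particular to the Klf genes. Every EV line of mouse 2 was above every EV line of mouse 1 in CPM for 7 of 10 genes, against 16.6% of all tested genes, and for 6 of 10 among BCR-ABL1 lines, against 19.8%. In TPM, EV 2A was below EV 1A for Klf6 (8.11 against 11.9), Klf7 (3.48 against 3.72) and Klf9 (6.075 against 8.02). For Klf10, EV 2A and 2B (7.64 and 6.95 TPM) were below every EV line of mouse 1. The counts between EV lines, of lines and of means, therefore depend on the scale. Beyond 1.5-fold, edgeR called 2 Klf genes between EV lines (Klf3 and Klf12), where 10.2% of all genes were called, and 3 between BCR-ABL1 lines (Klf3, Klf4 and Klf12), where 2.6% were. Without EV 2C, 4 were called between EV lines, with Klf2 (edgeR adjusted p = 0.00414) and Klf7 (0.00876) in addition, and the share of all genes also rose, to 16.8%. Without EV 2A, 3 were called, with Klf2 in addition (edgeR adjusted p = 0.0321), against 8.98% of all genes.

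Klf4 exceeded mouse 1 by 1.70 on the log2 scale in BCR-ABL1 lines of mouse 2 (edgeR adjusted p = 0.0326), a call that did not hold without EV 1C (0.0529) or without any one of the 6 BCR-ABL1 lines (0.0639 to 0.124). Leaving out EV 2C added Klf7 between BCR-ABL1 lines (log2 difference 0.85, edgeR adjusted p = 0.0304), where 5.28% of all genes were then called. Of the variance of log2 CPM, the mouse took 87.5% for Klf12, 71.6% for Klf7, 68.5% for Klf3 and 46.4% for Klf11, whereas its median over all tested genes was 5.92%. It took 0.235% for Klf10 and 7.38% for Klf6. What else differed between the 2 mice and their cultures was not tested.

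**Figure D3:**
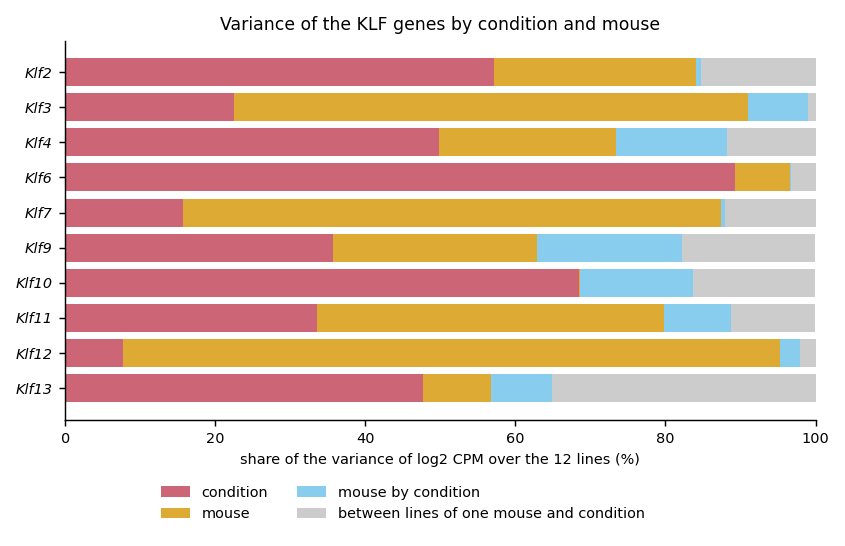
Share of the variance of log2 CPM over the 12 lines (x axis, percent) taken by condition, mouse, their interaction and the spread between lines of a mouse and condition, for each Klf gene. Condition takes the largest share for Klf6 (89.2%), Klf10 (68.4%), Klf2 (57.2%), Klf4 (49.9%), Klf13 (47.7%) and Klf9 (35.7%). The mouse takes the largest share for Klf12 (87.5%), Klf7 (71.6%), Klf3 (68.5%) and Klf11 (46.4%). Over all tested genes the median share is 39.7% for condition and 5.92% for the mouse.

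The effect of BCR-ABL1 was then compared between the mice. In mouse 1 alone, where Klf12 was below the filter and 9 Klf genes were tested, 3 were higher (Klf2, Klf3 and Klf6) and 1 lower (Klf4), against 16.2% and 12.2% of all genes. In mouse 2 alone 1 was higher (Klf6) and 0 were lower, against 3.83% and 2.51% of all genes. The test of the interaction in edgeR called 3 of 10 Klf genes, against 16.7% of all tested genes: Klf3 (adjusted p = 0.000222), Klf12 (0.0140) and Klf4 (0.0411). Klf3 rose in mouse 1, from EV lines at or near 0 counts, and Klf4 fell there, whereas neither passed in mouse 2. The call of Klf12 rests on 0 counts in the EV lines of mouse 1 against 11, 4 and 4 counts in its BCR-ABL1 lines, and no difference of Klf12 between the conditions passed, in mouse 2 alone (edgeR adjusted p = 0.978) or over all lines.

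The interaction call of Klf4 did not hold without any one of the 3 EV lines of mouse 1 or of the 6 BCR-ABL1 lines (edgeR adjusted p = 0.0535 to 0.0921). Without EV 2B the test also called Klf10 (edgeR adjusted p = 0.0284), with 19.6% of all genes called, and without EV 2C it also called Klf13 (edgeR adjusted p = 0.00545), with 36% of all genes called. The sign of the log2 fold change was the same in both mice for 9 of the 9 Klf genes fitted in each. No share over all tested genes was taken for this count. It includes genes called in neither mouse, such as Klf9 (0.41 in mouse 1 and 0.07 in mouse 2) and Klf11 (0.65 and 0.22).

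**Figure D4:**
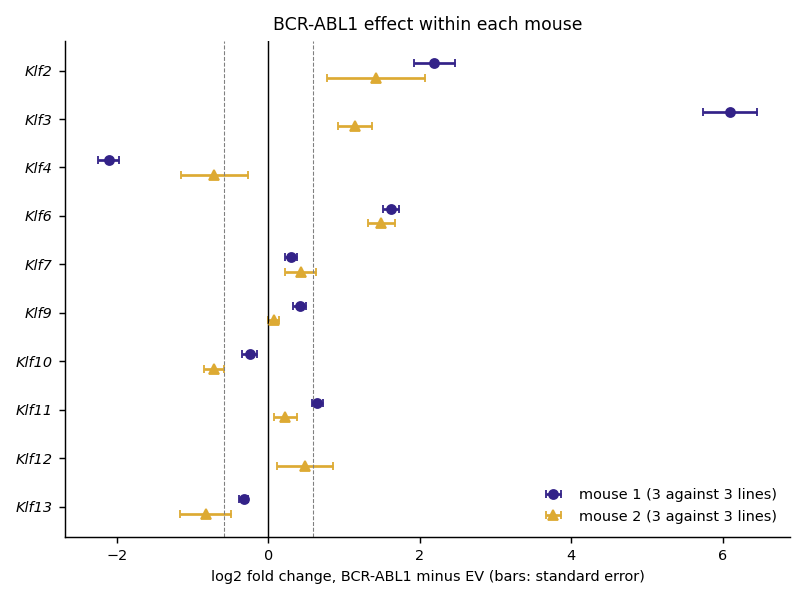
Log2 fold change of BCR-ABL1 against EV lines within mouse 1 (circles) and within mouse 2 (triangles) for each Klf gene, with bars for the standard error from the spread between lines and dashed lines at a 1.5-fold change. Klf6 lies at 1.62 and 1.49, Klf4 at -2.11 and -0.71. The value of Klf3 in mouse 1 rests on EV lines with at most 2 counts and depends on the prior count, and Klf12 was not fitted in mouse 1.

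Of the other 7 Klf genes, 3 passed the filter and 0 were called between the conditions. Klf8, whose product binds CtBP as KLF3 and KLF12 do, lay between 1.57 and 2.503 CPM in EV lines, between 4.995 and 5.54 CPM in BCR-ABL1 lines of mouse 1 and between 2.06 and 2.65 CPM in BCR-ABL1 lines of mouse 2. In contrast to Klf3 and Klf12, Klf8 was lower in mouse 2 among BCR-ABL1 lines (log2 difference -1.18, edgeR adjusted p = 0.0176), with an interaction at an edgeR adjusted p of 0.0404. Klf16 had a log2 fold change of 0.50 (edgeR adjusted p = 1), and Klf1, the erythroid member, was at 0.429 CPM or less in every line (edgeR adjusted p = 0.947). Klf5, Klf14, Klf15 and Klf17 were below the filter. The SP genes are the closest relatives of the Klf genes, and 0 of the 4 tested passed, with log2 fold changes of 0.04 for Sp1, -0.42 for Sp2, 0.03 for Sp3 and -0.63 for Sp4.

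Genes around the Klf factors were read from fixed lists, beside a median log2 fold change of -0.02 over all tested genes. Of all tested genes 5.98% were called higher and 6.46% lower. Of 13 cofactors and ubiquitin ligases of KLF proteins, 0 were called in either direction (median -0.11). Among them Ctbp1, the corepressor bound by KLF3, KLF8 and KLF12, was at 205 to 257 CPM in EV lines, with a log2 fold change of -0.11 (edgeR adjusted p = 1), and Sin3a was at -0.31 (edgeR adjusted p = 1). Of 8 upstream regulators of Klf2, 0 were called (median -0.12), with 0.10 for Foxo1, the factor that drives Klf2 in lymphocytes, and -0.39 for Mef2c (edgeR adjusted p = 1 for each). These are RNA levels, and the phosphorylation or activity of the proteins, FOXO1 among them, was not measured in these data.

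Of 5 genes described as targets of KLF2 and KLF4 in lymphocytes, 2 rose and 0 fell, against 5.98% and 6.46% of all tested genes. Their median log2 fold change was 1.36. S1pr1, the receptor for egress from lymphoid organs, rose by 3.51 (SE 0.89, edgeR adjusted p = 0.0166). Ccnd2, a cyclin that promotes the cell cycle, also rose, with 8.58 and 169.98 CPM as lowest and highest EV line and 373 and 482 CPM as lowest and highest BCR-ABL1 line (log2 fold change 3.05, edgeR adjusted p = 0.0115). Itgb7, an integrin chain at 0.107 to 0.750 CPM over all lines, had a log2 fold change of 1.36 (edgeR adjusted p = 0.0721). With the mouse as a block Itgb7 passed (1.45, edgeR adjusted p = 0.0415), which made 3 of 5 higher, where 7.47% of all genes were. Itgb7 also passed in mouse 1 alone (2.47, edgeR adjusted p = 0.000119). It did not pass in mouse 2 alone (0.57, edgeR adjusted p = 0.872), with the line pair as a block (edgeR adjusted p = 0.133) or in DESeq2 (adjusted p = 0.344). S1pr1 did not pass without a gene filter (edgeR adjusted p = 0.0559) or with the line pair as a block (0.0512), and in mouse 2 alone Ccnd2 did not (0.0868).

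S1pr1 lay between 0.0565 and 0.169 CPM in EV lines of mouse 1 and between 1.15 and 2.31 CPM in EV lines of mouse 2, with EV lines of mouse 1 lowest. Among BCR-ABL1 lines S1pr1 was higher in mouse 1 (12.6 to 14.8 CPM) than in mouse 2 (7.78 to 8.16 CPM), the reverse of Klf2 and Klf3. This difference between the mice did not pass for S1pr1 (log2 difference -0.76) or Klf2 (1.07, edgeR adjusted p = 0.953), whereas it passed for Klf3. The effect on S1pr1 differed between the mice, with a log2 fold change of 7.05 in mouse 1 and 2.15 in mouse 2 (interaction, edgeR adjusted p = 3.48e-05), as did that on Ccnd2, with 5.09 and 2.23 (edgeR adjusted p = 0.0103).

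Of 12 other quiescence genes, 1 rose and 1 fell, against 5.98% and 6.46% of all tested genes. Slfn2, which keeps T cells quiescent, rose from between 0.215 and 6.56 CPM in EV lines to between 173 and 194 CPM in BCR-ABL1 lines (log2 fold change 6.30, edgeR adjusted p = 0.000318, with 9.29 in mouse 1 and 5.36 in mouse 2, interaction 0.000365), and Btg1, an antiproliferative gene, fell from between 259 and 354 CPM to between 72.8 and 112 CPM (log2 fold change -1.82, edgeR adjusted p = 1.00e-05). Of 4 tested genes induced by glucocorticoids, as Klf9 is, Fkbp5 rose (1.63, edgeR adjusted p = 0.000313) and Per1 fell (-0.89, edgeR adjusted p = 0.00359). In mouse 2 alone neither Fkbp5 (edgeR adjusted p = 0.0788) nor Per1 (0.130) passed, and Per1 did not pass without a gene filter (0.130). Sgk1 of the same list was not called over all lines (-0.91, edgeR adjusted p = 0.456). It was lower in mouse 2 alone (-2.38, edgeR adjusted p = 0.0267) and at 0.05 in mouse 1 (interaction, edgeR adjusted p = 0.00343). Of 14 proliferation genes 0 were called and all 14 had a positive log2 fold change over all lines (median 0.31), as 7258 of all 15038 tested genes had. The common sign came from mouse 2, where the values ran from 0.36 to 0.82, whereas 6 of 14 were negative in mouse 1 (-0.18 to 0.55). The interaction test called 5 of 14, against 16.7% of all tested genes. Their summed level lay between 4480 and 7149 CPM in EV and between 7109 and 8161 CPM in BCR-ABL1 lines, and its part in the Klf values was not tested.

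**Figure D5:**
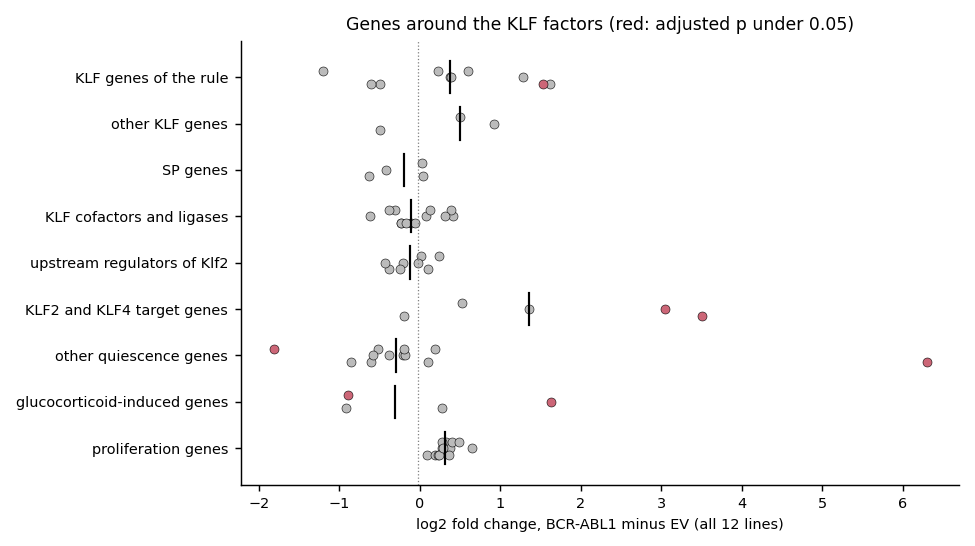
Log2 fold change of BCR-ABL1 against EV lines over all 12 lines (x axis) for the tested genes of each list, red where the edgeR adjusted p is under 0.05, with black bars for the list medians and a dotted line at the median of all tested genes (-0.02). The targets of KLF2 and KLF4 have a median of 1.36, and the Klf genes themselves of 0.38, with Klf6 called.

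The tested genes whose pattern over the 12 lines was most like that of Klf6, by the root mean square difference of centered log2 CPM, were Scd2 (0.166), an enzyme of fatty acid desaturation, and Gpm6b (0.204), a membrane proteolipid. Scd2 rose from a mean of 103 CPM in EV to 291 CPM in BCR-ABL1 lines (edgeR adjusted p = 0.000488), and Gpm6b rose from 7.90 to 21.9 CPM (edgeR adjusted p = 0.00253). Among the Klf genes themselves the closest pairs were Klf9 with Klf11 (0.234) and Klf7 with Klf11 (0.245).

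RefSeq promoters matched 9 of the 10 genes (Klf10 had no entry). CACCC on either strand, the letters of the KLF box, was found in 6 of 9 promoters, against 57.5% of the 32851 promoters in the table, with 5 copies in Klf3 and 3 in Klf7. GGGCGG on either strand, the GC box, was found in 7 of 9, against 35.7% of all promoters, with 6 copies in Klf3 and 4 each in Klf4 and Klf11. Neither motif contains the other, although neighboring copies can share bases. The letters TTCNNNGAA of the STAT motif and GTAAACA of the FOXO motif were each found in the Klf9 promoter alone, against 8.3% and 3.65% of all promoters. GC content ranged from 45.7% (Klf12) to 77.7% (Klf11), with a median of 52.7% over all promoters. A match to these letters describes the sequence and is not a measured binding site.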

How the data were processed

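RNA of 12 pre-B cell lines, 6 per condition, was sequenced from stranded total RNA libraries. The authors deposited whole-number read counts per gene for each line, without normalization or pooling. The submitters' processing notes name FastQC 0.11.5, Trimmomatic 0.36, TopHat2 2.1.1, Bowtie2 2.3.2, featureCounts 1.5.3, R 3.6.1 and edgeR 3.18.1, on GRCm38. The strand setting of the counting is not given in the sources used here.

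From these counts the values were derived with edgeR 4.0.16, which uses limma 3.58.1, in R 4.3.3. DESeq2 1.42.0 served as an alternative, and matplotlib 3.10.9 under Python 3.11.15 drew the plots. Symbols and exon lengths came from GENCODE M21, which named 51633 of the 51826 genes. Genes were filtered with filterByExpr, scaled with TMM and fitted with robust quasi-likelihood, glmTreat at 1.5-fold and Benjamini-Hochberg adjustment at 0.05. The interaction was tested with glmQLFTest. Standard errors come from the spread of log2 CPM (prior count 2) between lines. Over the 12 lines the median total was 52755639 counts, and 3 counts were taken as the floor, which covers counting error only, since reads are not independent molecules. Scripts were tested on simulated data.

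All Klf genes of the list are named, as are other Klf and Sp genes that passed the filter. Of each other list up to 4 genes are named, the called ones with the largest change or, where fewer were called, those with the highest mean CPM. Exceptions are Itgb7, Foxo1, Mef2c, Sin3a and Sgk1, as well as markers, which were chosen after their values were seen. A listed gene is not reported here and was left out of its list. Members and lists were chosen with earlier results of these data known.

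Lines share the numbers 1A to 2C, and equal first digits mean the same mouse per the labels. Deviations from the condition means correlated at 0.0853 to 0.240 within a mouse and at -0.203 to -0.0636 between mice, so the mouse pairs the lines. After removal of mouse means, lines with the same mouse and letter correlated at -0.109 to 0.0856, with both signs, so no common pairing by letter was seen. The paper describes triplicates from independent experiments. The labels do not say whether the letter marks these experiments, and this was not tested. Counts of lines of a mouse and condition differed beyond sampling noise, with a chi-square of 9.36 to 434 per degree of freedom in 12 pairs. Alternatives were RLE size factors, no composition factor, no filter, a minimum of 1 CPM in 6 lines, DESeq2, a likelihood ratio fit, a null of no change, blocks, each mouse alone, each line left out and the longest transcript as length. Leaving out EV 2B and 2C together was added after seeing the data.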

Additional observations from a re-analysis of the deposited data

Results flagged for a closer look

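In the EV lines, Klf2 was at 12.2 CPM in EV 2B, far from the other 5, which lay between 1.54 and 3.71 CPM. The gap to the next line was 0.797 of the whole range, above Dixon's critical value of 0.625 for 6 samples. It was the only such case in 20 groups tested (10 genes in each condition), and chance gives about 1 in 20.

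The effect of BCR-ABL1 differed between the mice in the edgeR interaction test for Klf3 (adjusted p = 0.000222), Klf12 (0.0140), Klf4 (0.0411) and Klf8 (0.0404). Klf3 rose and Klf4 fell in mouse 1, and neither passed in mouse 2. Klf12 had 0 counts in the EV lines of mouse 1 and 11, 4 and 4 counts in its BCR-ABL1 lines, and it did not pass in mouse 2 (edgeR adjusted p = 0.978). Klf8 rose in mouse 1 (log2 fold change 1.21, edgeR adjusted p = 0.000355), whereas its value was 0.46 in mouse 2 (edgeR adjusted p = 1.00).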

How the results depend on the processing

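Klf6 was higher under each of 24 alternatives, with log2 fold changes of 1.46 to 1.68. Klf2 was called in 6 of 24. The count of Klf genes called higher (1) was 2 against no change, 3 with the mouse as replicate block, 2 with the line pair as block, 3 in mouse 1 alone and 2 without EV 2B and 2C. Leaving out 1 line gave 1 to 2, with 2 without EV 2B. The count called lower (0) was 3 against no change, 1 with the mouse block and 1 in mouse 1 alone.

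Over all genes, 899 were higher and 971 lower. Higher calls became 598 with the CPM filter, 3386 against no change, 2500 in mouse 1, 590 in mouse 2 and 1416 without EV 2B and 2C. Lower calls became 3901, 1878 and 387 against no change, in mouse 1 and in mouse 2. Leaving out 1 line gave 802 to 1348 higher and 798 to 1433 lower genes.

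Interaction calls were 3 Klf genes and 2516 of all genes. Without EV 2B and 2C they were 6 and 5256, and with 1 line left out 2 to 4 and 1882 to 5514, most without EV 2C. Klf3 and Klf12 were called under 17 of 17 alternatives, and Klf4 lost its call in 9 of 17. The log2 interaction changed sign, without a call, for Klf2 and Klf6 without EV 2B and for Klf7 without EV 2C. With 1 line left out it ranged from -1.14 to 0.18 for Klf2, from -0.27 to 0.057 for Klf6 and from -0.046 to 0.26 for Klf7. Between EV lines of the mice, 2 Klf genes became 7 and 1535 genes became 3706 against no change, and 2 to 4 and 1195 to 2577 with 1 line left out. Between BCR-ABL1 lines, 391 genes became 878 against no change and 230 to 810 with 1 line left out. The mouse block changed the call of Klf2, Klf3 and Klf4 and of no other Klf gene. The cause of these changes was not tested. Scaling moved the median log2 fold change of all genes to between -0.09 and 0.00.

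Counts near 0 limit Klf3 and Klf12 in EV lines of mouse 1, and 2 animals limit every difference between mice.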

Other observations

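The ratio of Klf2 to Klf4 in TPM, chosen after the values were seen, put the conditions apart in all 12 lines, although each gene alone overlapped. Because Klf2 and Klf4 had log2 fold changes of opposite sign in these same lines, their ratio favors such a separation. It is therefore a description and no test, and how many other gene pairs would separate the conditions was not counted. It was 0.250, 0.294 and 0.343 in EV 1A to 1C and 0.378, 1.45 and 0.753 in EV 2A to 2C. In BCR-ABL1 lines it was 6.89, 4.09 and 6.45 in 1A to 1C and 4.31, 3.42 and 3.70 in 2A to 2C. The highest EV line was EV 2B, and the lowest BCR-ABL1 line was BCR-ABL1 2B.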
